A study of Gallus gallus with 6 samples.

Results

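The genes described here are 10 signals of the vessel wall: the angiopoietins ANGPT1 and ANGPT2, their receptor TEK (also called TIE2) with its relative TIE1, the Notch ligands DLL4, DLL1, JAG1 and JAG2, and the receptors NOTCH1 and NOTCH2. They were taken as a fixed list of symbols, and every probe set that the platform annotation gives to one of them was kept. All 10 were on the array, as 10 of 13009 genes with 1 symbol and 27 of 38439 probe sets. For each gene the probe set of highest mean over the 6 arrays leads, and the others are given beside it.

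RNA was hybridised to Affymetrix chicken GeneChips from wound and control chorioallantoic membrane (CAM), a vascularised membrane of the embryo, of 3 brown Leghorn eggs. The shells had been cracked after 3 days of culture, and the contents were kept without shell in Petri dishes from then on. Wound CAM had been cut superficially with a scalpel after 10 days of culture, its epithelium scraped off and the area covered with a nylon grid, and the granulation tissue (GT) that had formed was taken 6 days later. Control CAM came from uninjured areas of the same eggs at the same time, so that neither group carried a drug, a transgene or a graft. Each group has 3 arrays, and both hold whole tissue, in which endothelium, vessel wall, stroma, epithelium and blood cells are mixed.

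ANGPT1, made by the cells around a vessel, activates TEK on the endothelium and keeps the vessel stable and tight. ANGPT2, stored in and released by the endothelium, can block or replace ANGPT1 at the same receptor and is known for loosening vessels when they are remodelled, while TIE1 binds no angiopoietin directly and modulates TEK. Notch ligands on 1 cell activate receptors on its neighbour, where the receptor is cut and its intracellular part enters the nucleus with RBPJ. In sprouting vessels of mouse and zebrafish DLL4 and NOTCH1 restrain the number of tip cells and JAG1 opposes them, and Notch also marks arteries and their muscle coat.

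All values are log2 intensities per probe set as deposited, so that a difference of -1 is a ratio of 0.5, and an intensity cannot be set against that of another probe set. Array medians lay between 3.01 and 3.05, and the lowest correlation between any 2 arrays was 0.965 (Pearson's r over probe sets). A probe set with a mean not above the median of all probe sets is called dim below. Wound and control were compared with limma, with p adjusted by Benjamini-Hochberg over all 38439 probe sets and a threshold of 0.05. Over the lead probe sets of all genes, 3.92% passed with a higher and 0.392% with a lower wound level. Differences are given as wound minus control with the moderated standard error (SE). Unless a block is named, the fit takes no account of which wound and control share an egg. With the replicate number as a block, the adjusted p of the 10 leads lay between 0.0982 and 0.419 by limma.

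Endothelial markers were present in both groups. The endothelial cadherin CDH5 read 9.42, 9.20 and 10.3 in the wounds, against 10.4, 10.4 and 11.0 in the controls, and 18 of 20 measured endothelial markers lay above the array median. Cell type markers differed between the groups. Of 16 myeloid markers 11 were higher in wound CAM (1 with the replicate number as a block), where 3.92% of all genes passed as higher. Most of these markers, such as SPI1 and CYBB, are in the study's own list of up-regulated genes from these arrays. The count was thus largely known beforehand and is no independent evidence. The mean of the 16 ranged from 8.19 to 8.49 in the wounds and from 6.28 to 6.69 in the controls. Of these markers 15 differed by more than 0, while MRC1, named after its values were seen, differed by -2.00 (SE 0.51, adjusted p = 0.154 by limma). The mean of the 20 endothelial markers ranged from 6.16 to 6.71 in the wounds and from 7.05 to 7.09 in the controls.

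All 10 genes had a lower mean in wound than in control CAM, and in none did the difference pass the adjusted threshold. Their lead probe sets differed by -1.42 to -0.18, with a median of -0.82, where the median over the lead probe sets of all genes was 0.01. In 9 of the 10 every wound lay below every control, which holds for 7.81% of all genes, and JAG1 alone overlapped. None had every wound above every control, an order found in 20.8% of all genes. In 8 of the 10 the unadjusted limma p was under 0.05 with a lower wound level (5.93% of all genes), and in 3, ANGPT2, TIE1 and DLL1, the ratio of wound to control was under 0.5 (1.84% of all genes). A lower mean in the wounds, of any size, was found in 43% of all genes. These shares include dim genes, whereas all 10 leads lay above the array median. In whole tissue, fewer cells of a type and less RNA per cell cannot be told apart, and this holds for every value below.

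**Figure D1:**
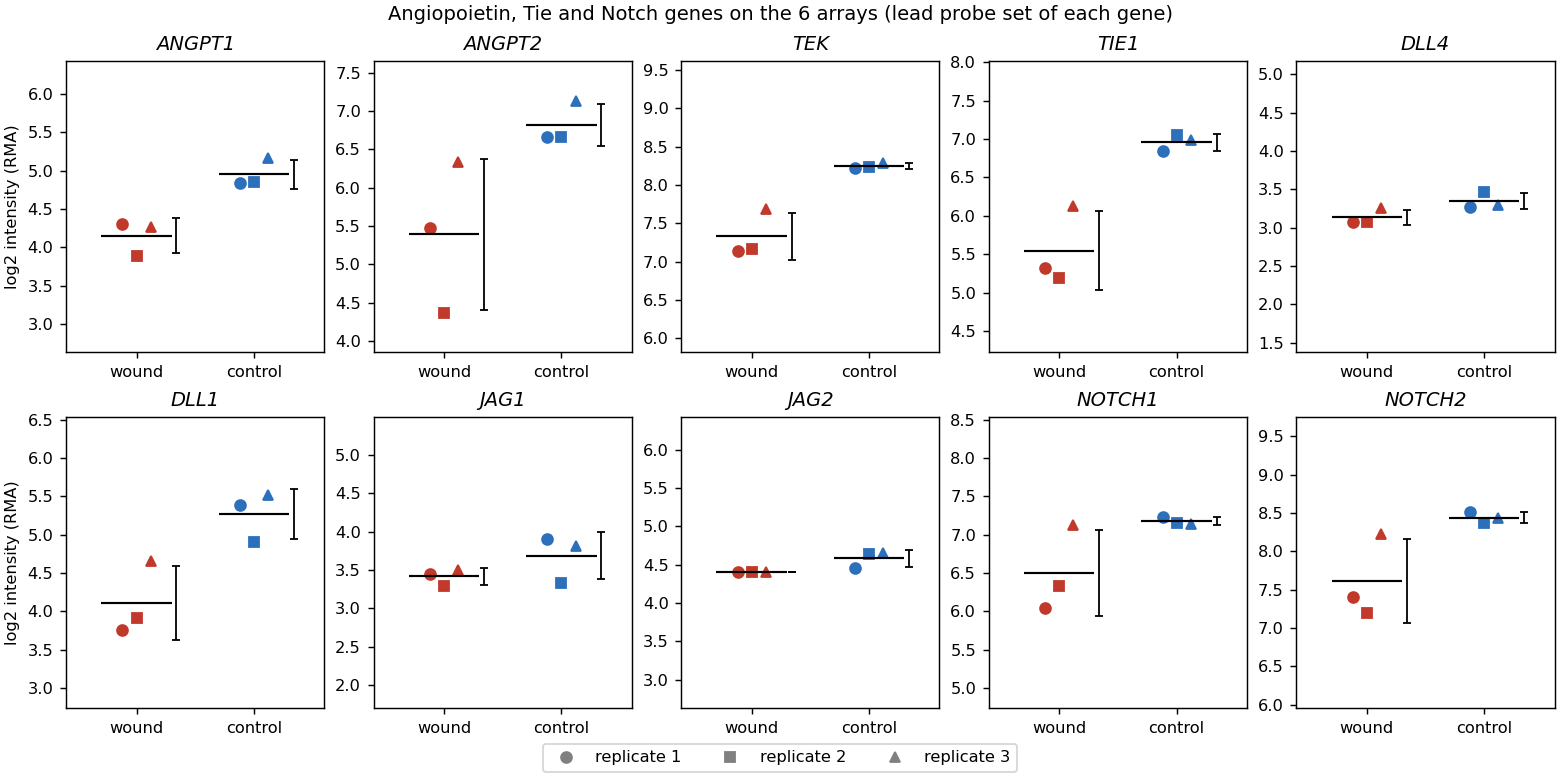
The log2 intensity (y axis, RMA) of the lead probe set of each gene is plotted for the 3 wound (red) and 3 control (blue) arrays, with marker shape for the replicate number, a line at the group mean and a bar of 1 SD. Each panel spans the same number of log2 units, and wounds lie below controls in every panel but that of JAG1, with the highest wound at replicate 3 in 8 of the 10 genes.

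Among the ligands of TEK, ANGPT1 read 4.30, 3.89 and 4.26 in the wounds, against 4.84, 4.85 and 5.17 in the controls. The groups did not overlap, and the control nearest to the wounds was above them by more than the spread of either group. The means were 4.15 ± 0.22 in the wounds and 4.95 ± 0.18 in the controls (SD, n = 3 each), a difference of -0.80 (SE 0.15, 95% interval -1.20 to -0.40), which is a wound to control ratio of 0.574. The adjusted p was 0.0878 by limma. A second probe set of ANGPT1, at 3.51, 3.75 and 3.67 in the wounds and 3.96, 3.89 and 3.85 in the controls, also kept the groups apart and differed by -0.25 (SE 0.07, adjusted p = 0.192 by limma).

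ANGPT2, the antagonist, has 1 probe set and read 5.48, 4.37 and 6.33 in the wounds, against 6.66, 6.66 and 7.13 in the controls. The wounds were scattered over almost 2 log2 units, and the highest of them still lay below the lowest control. The means were 5.39 ± 0.98 in the wounds and 6.82 ± 0.27 in the controls (SD, n = 3 each), and the difference of -1.42 (SE 0.54, 95% interval -2.82 to -0.03) is the lowest among the 10 leads, at a ratio of 0.373. With that spread among the wounds the adjusted p was 0.335 by limma.

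Among the 4 lead probe sets of this system the controls were most even for the receptors. TEK, the tyrosine kinase that both angiopoietins bind, read 7.14, 7.16 and 7.68 in the wounds, against 8.22, 8.23 and 8.29 in the controls. The controls lay within 0.1 of each other, and wounds 1 and 2 were lower than wound 3. The means were 7.33 ± 0.31 in the wounds and 8.25 ± 0.04 in the controls (SD, n = 3 each), with a difference of -0.92 (SE 0.16, 95% interval -1.34 to -0.49), a ratio of 0.529 and an adjusted p of 0.0754 by limma. Its other probe set read 4.74, 4.81 and 4.88 in the wounds and 5.08, 5.29 and 5.44 in the controls, again without overlap, and differed by -0.46 (SE 0.10, adjusted p = 0.118 by limma).

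TIE1, the orphan partner of TEK, read 5.33, 5.19 and 6.13 in the wounds, against 6.84, 7.05 and 6.98 in the controls. Every wound was below every control by more than 0.5, and wound 3 was again the highest of the wounds. The means were 5.55 ± 0.51 in the wounds and 6.96 ± 0.11 in the controls (SD, n = 3 each), a difference of -1.41 (SE 0.27, 95% interval -2.13 to -0.70) and a ratio of 0.376, with an adjusted p of 0.0908 by limma. Its second probe set showed the same order, at 4.68, 4.63 and 5.44 in the wounds and 6.68, 6.34 and 6.75 in the controls. It differed by -1.68 (SE 0.26, ratio 0.313), and its adjusted p of 0.0584 by limma was the lowest of all 27 probe sets. The second probe sets of ANGPT1, TEK and TIE1 thus each lay on the same side as the lead of the gene.

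**Figure D2:**
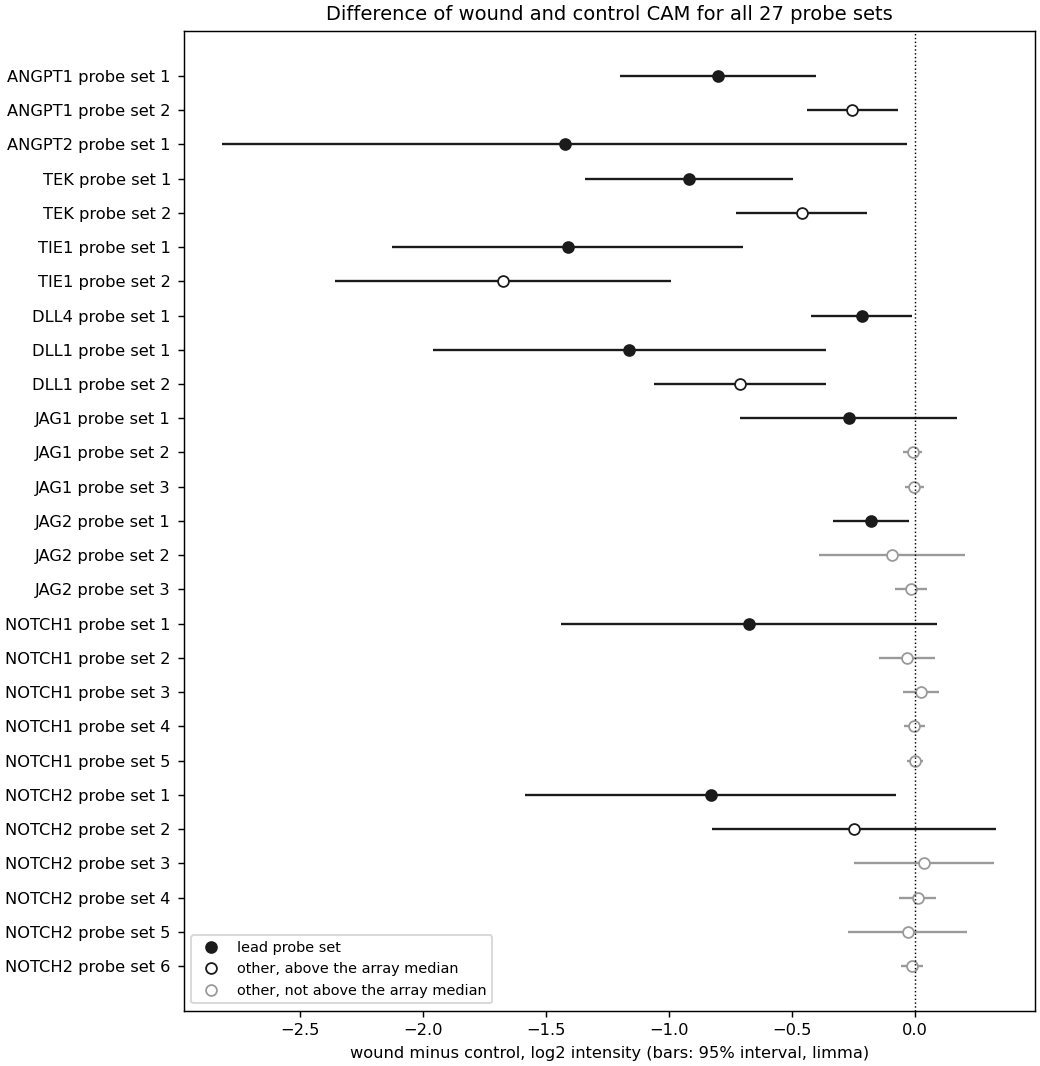
The difference of wound minus control (x axis, log2 intensity) is plotted with its 95% interval from limma for all 27 probe sets, grouped by gene, with filled points for leads, open black points for other probe sets above the array median and open grey points for dim ones. The points of ANGPT1, ANGPT2, TEK, TIE1 and DLL1 all lie to the left of 0 with their intervals, whereas the 12 dim probe sets of JAG1, JAG2, NOTCH1 and NOTCH2 lie within 0.1 of 0.

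Among the leads of the 4 Notch ligands the largest difference, which did not pass, was that of DLL1. This gene, a Delta ligand of early embryonic tissues and of arterial endothelium in the mouse, read 3.75, 3.91 and 4.66 in the wounds, against 5.38, 4.90 and 5.52 in the controls. The groups did not overlap, with wound 3 within 0.25 of control 2. The means were 4.11 ± 0.48 in the wounds and 5.27 ± 0.33 in the controls (SD, n = 3 each), a difference of -1.16 (SE 0.31, 95% interval -1.96 to -0.36) and a ratio of 0.447, with an adjusted p of 0.170 by limma. A second probe set of DLL1 read 2.64, 2.74 and 2.79 in the wounds and 3.69, 3.21 and 3.39 in the controls, so that only the controls lay above the array median. It differed by -0.71 (SE 0.13, adjusted p = 0.0862 by limma).

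DLL4, the ligand of tip cells and arteries, has 1 probe set and read 3.08, 3.08 and 3.25 in the wounds, against 3.27, 3.47 and 3.30 in the controls. All 6 values were close to the array median, and wound 3 and control 1 were almost level. The difference was -0.21 (SE 0.08, 95% interval -0.42 to -0.01) at a ratio of 0.862, with an adjusted p of 0.323 by limma.

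JAG1, a Jagged ligand of endothelium and vascular muscle, read 3.44, 3.30 and 3.50 in the wounds, against 3.90, 3.33 and 3.82 in the controls. Control 2 lay among the wounds, so that the groups overlapped. The difference of -0.27 (SE 0.17) had a 95% interval of -0.71 to 0.17, which includes both no difference and one as large as that of NOTCH1, and the adjusted p was 0.644 by limma. Its other 2 probe sets were dim and differed by -0.01 and -0.00057.

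JAG2, the other Jagged ligand, read 4.40, 4.41 and 4.40 in the wounds, against 4.45, 4.64 and 4.66 in the controls. The wounds were level to within 0.01, and control 1 stood only just above them. The difference was -0.18 (SE 0.06, 95% interval -0.33 to -0.02) at a ratio of 0.884, with an adjusted p of 0.277 by limma. Its other 2 probe sets were dim, and their differences were -0.09 and -0.01.

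NOTCH1, the main Notch receptor of endothelium, read 6.04, 6.34 and 7.12 in the wounds, against 7.23, 7.16 and 7.14 in the controls. Wound 3 was level with the controls to within 0.02 of the lowest, and the whole difference came from wounds 1 and 2. The means were 6.50 ± 0.56 in the wounds and 7.18 ± 0.05 in the controls (SD, n = 3 each), with a difference of -0.68 (SE 0.29, 95% interval -1.44 to 0.09), a ratio of 0.626 and an adjusted p of 0.423 by limma. The other 4 probe sets of NOTCH1 were dim, and their differences ran from -0.03 to 0.03.

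NOTCH2, a receptor found in vascular muscle as well as in endothelium and stroma, read 7.40, 7.20 and 8.23 in the wounds, against 8.51, 8.37 and 8.44 in the controls. The wounds kept the same pattern as in NOTCH1, with wound 3 close under the controls. The means were 7.61 ± 0.55 in the wounds and 8.44 ± 0.07 in the controls (SD, n = 3 each), a difference of -0.83 (SE 0.29, 95% interval -1.58 to -0.08) and a ratio of 0.562, with an adjusted p of 0.292 by limma. A second probe set above the median read 4.60, 4.53 and 5.06 in the wounds and 5.07, 4.64 and 5.23 in the controls, and these overlapped, with a difference of -0.25 (SE 0.22). The other 4 were dim, with differences of -0.03 to 0.04.

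Over all 27 probe sets, 13 had every wound below every control and 0 the reverse, where 6.12% and 13.7% of all probe sets did so. The 12 dim probe sets differed by at most 0.09 in size, 8 of them below 0, and carry little information on their genes. None of the 27 passed the adjusted threshold, which 0.304% of all probe sets passed with a lower and 2.04% with a higher wound level. This depended on which probe sets were fitted and on wound replicate 3: with only probe sets above the median in the fit ANGPT1, TEK and TIE1 passed (adjusted p = 0.0374, 0.0315 and 0.0340 by limma), and without wound replicate 3 TEK, TIE1, NOTCH1 and NOTCH2 did (0.0115, 0.0181, 0.0389 and 0.0244). Without control replicate 1 only JAG2 passed, at 0.0445. Over all probe sets the lower calls changed as well, from 117 to 359, 421 and 40 in these settings, in that order.

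Wounds were also set against the control of the same replicate number, and the genes differed unevenly over the numbers. For TEK the wound minus control difference was -1.08, -1.07 and -0.61 at numbers 1, 2 and 3. It was -1.51, -1.87 and -0.85 for TIE1 and -1.19, -2.29 and -0.80 for ANGPT2. For NOTCH1 it was -1.19, -0.82 and -0.01, and thus almost level at number 3. NOTCH2 differed by -1.11, -1.17 and -0.21, so that a smaller difference remained at number 3. The smallest of the 3 differences was that of number 3 in 7 of the 10 genes, the exceptions being ANGPT1, JAG1 and JAG2.

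Marker lists moved with these numbers. The mean of the endothelial markers differed by -0.92, -0.65 and -0.38 for numbers 1, 2 and 3, and that of 11 mural cell and smooth muscle markers by -1.30, -1.37 and 0.07. All 11 mural markers were below 0 at numbers 1 and 2, whereas at number 3 the mean joined 5 below and 6 above 0. At that number the smooth muscle myosin MYH11 differed by 1.01 and MYLK by 0.86, but the smooth muscle actin ACTA2 by -0.59. The ACTA2 probe set read 2.87, 2.87 and 2.91 in the wounds, below the array median, and says little about its gene there. In the paper, staining of smooth muscle actin protein showed positive myofibroblasts in the wounded area. At number 3 the pericyte markers CSPG4 and PDGFRB differed by -1.31 and -0.59, but RGS5, ABCC9 and KCNJ8 by 0.49, 0.77 and 0.05. Markers of both cell types thus lay on both sides of 0, these genes being picked with their values in view. The mean of 9 fibroblast markers differed by -0.27, -0.36 and 0.35, and its members were split at number 3. There, picked with their values in view, POSTN read 8.08 in the wound and 5.96 in the control, and FAP 6.30 and 4.77. COL3A1 and THY1 were also higher in the wound, whereas PDGFRA, COL1A1, COL1A2, DCN and LUM were lower. The mean of the myeloid markers differed by 1.50, 2.21 and 1.99, in the same direction at every number. The part of these cell types in the values of the 10 genes was not tested.

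**Figure D3:**
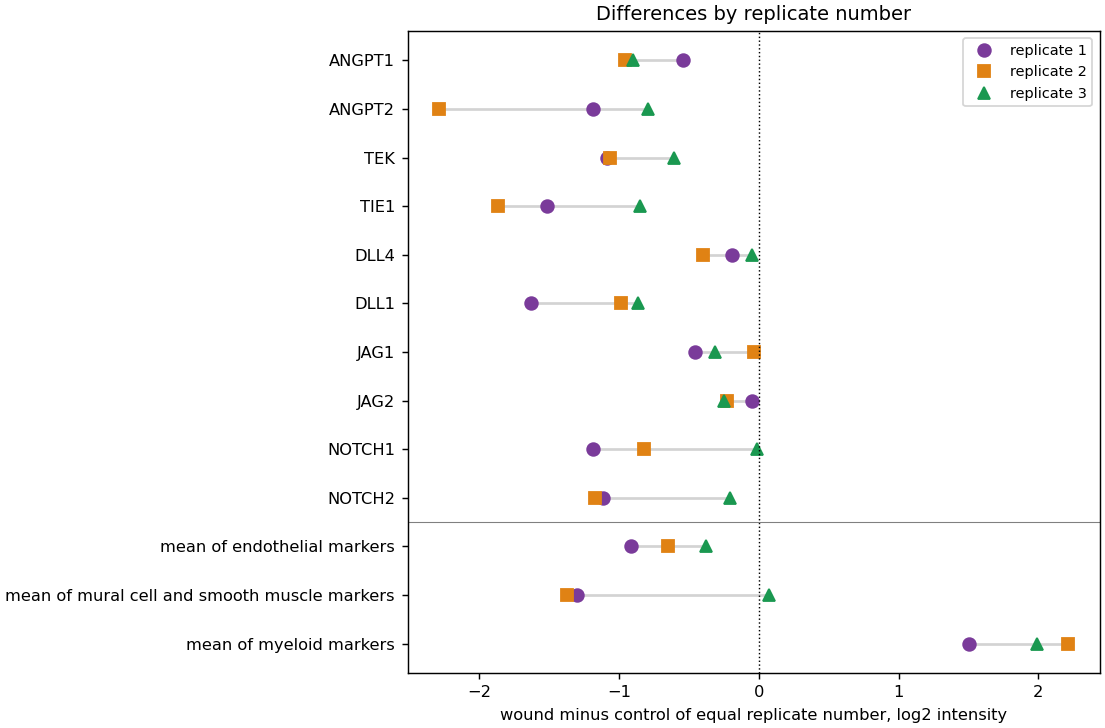
The wound minus control difference (x axis, log2 intensity) is plotted for each replicate number (circle 1, square 2, triangle 3) for the lead probe set of each gene and, under the line, for the means of 3 marker lists. For NOTCH1 and the mean of the mural markers number 3 lies at or near 0, and for NOTCH2 at -0.21. The other numbers of these lie at -0.82 or under, while ANGPT1, TEK, TIE1, ANGPT2 and DLL1 stay below -0.5 at every number.

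Genes with a like role were set against each other within each array, as 5 pairs chosen with the values in view. TIE1 relative to TEK differed by -0.49 between wound and control CAM, with every wound below every control (TIE1 minus TEK -1.81, -1.98 and -1.55 in the wounds, -1.38, -1.18 and -1.31 in the controls). DLL1 relative to DLL4 differed by -0.95, also without overlap, though DLL4 sat near the array median. For ANGPT2 relative to ANGPT1 (-0.62), NOTCH2 relative to NOTCH1 (-0.16) and JAG1 relative to JAG2 (-0.09) the groups overlapped. The exact two-sided permutation p, which takes no account of the replicate number, was 0.1 for the first 2 pairs and 0.4, 0.4 and 0.7 for the others (0.25, 0.25, 0.5, 0.5 and 0.7 after Benjamini-Hochberg adjustment over the 5 pairs). Since 3 against 3 arrays allow no p under 0.1, no pair could have passed, and the values stand as a description.

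The genes were then read against the endothelial markers, by subtracting the mean of the 20 from each array, a quantity also chosen after the values were seen and given without a test. Relative to these markers TIE1 still differed by -0.76 and TEK by -0.27, both with every wound below every control. ANGPT2 differed by -0.77 and DLL1 by -0.51, but their groups now overlapped. NOTCH1, at -0.03, ANGPT1, at -0.15, and NOTCH2, at -0.18, were close to the endothelial mean and their groups overlapped. DLL4 and JAG2 differed by 0.43 and 0.47, both with every wound above every control, and JAG1 by 0.38 with overlap. Their own differences were smaller than that of the marker mean. These values thus come from the lower marker mean in the wounds and show no rise of the genes. DLL4 also lay close to the array median. The markers themselves ranged from -1.49 to 0.05. Named after their values were seen, VWF and SOX18 (both -1.49) lay as low as TIE1 (-1.41). FLT1 (-0.003), MMRN2 (-0.001) and ROBO4 (0.003), named likewise, were flat, MMRN2 and ROBO4 being dim. Dim markers in the mean make its difference between the groups smaller in size. A value below the marker mean therefore does not set a gene apart from all endothelial markers.

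Of the 20 endothelial markers 18 were below 0 (43% of all genes), with a median of -0.63, and 10 had every wound below every control (7.81% of all genes). EGFL7, a protein that endothelium secretes into its matrix, passed the test. It read 7.36, 7.47 and 7.82 in the wounds and 8.80, 8.84 and 8.55 in the controls, and fell, with a difference of -1.18 (SE 0.15, adjusted p = 0.0384 by limma, 0.121 with the block). The call was also lost in 5 of the 6 fits that left out 1 array, all but that without wound replicate 3. The brightest markers that did not pass were CDH5, at -0.96 (SE 0.34, adjusted p = 0.305), and the junction protein PECAM1, at -0.49 (SE 0.13, 0.170).

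Of 11 measured genes of tip cells, arteries and veins none passed, and 9 were below 0, with a median of -0.40. By the rule for named genes these are NRP1, a co-receptor of VEGF, at -0.25 (SE 0.34), and NR2F2, the vein regulator, at -1.25 (SE 0.22, adjusted p = 0.0732 by limma). The arterial connexins GJA4 and GJA5, picked after their values were seen, were the lowest of the list. GJA4 read 4.17, 3.75 and 4.89 in the wounds and 6.11, 6.27 and 6.57 in the controls, a difference of -2.05 (SE 0.33, adjusted p = 0.0604 by limma), and GJA5 differed by -1.88 (SE 0.40, 0.107). Other members were mixed, as was also seen after the values were known. The growth factor PDGFB also had every wound below every control, at -1.19 (SE 0.33, adjusted p = 0.191 by limma). The chemokine receptor CXCR4, a tip cell gene that leukocytes express too, read 6.52, 6.09 and 5.94 in the wounds and 5.22, 4.42 and 5.12 in the controls, and differed by 1.26 (SE 0.28, adjusted p = 0.115 by limma). The arterial ligand EFNB2 (-0.40, SE 0.19) and the netrin receptor UNC5B (-0.07, SE 0.21) overlapped between the groups. With the block the SE of EFNB2 was 0.05 (adjusted p = 0.0851 by limma).

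Of 11 mural cell and smooth muscle markers none passed either. All 11 had a mean below 0, with a median of -0.57, and 3 had every wound below every control, against 7.81% of all genes. The brightest were MYLK, the kinase of the myosin light chain, at 9.64, 8.65 and 11.1 in the wounds and 10.5, 10.3 and 10.2 in the controls, and TAGLN, an actin-binding protein of smooth muscle, at 8.12, 6.74 and 9.44 in the wounds and 9.72, 9.70 and 9.34 in the controls. For both, wound 3 stood above control 3.

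**Figure D4:**
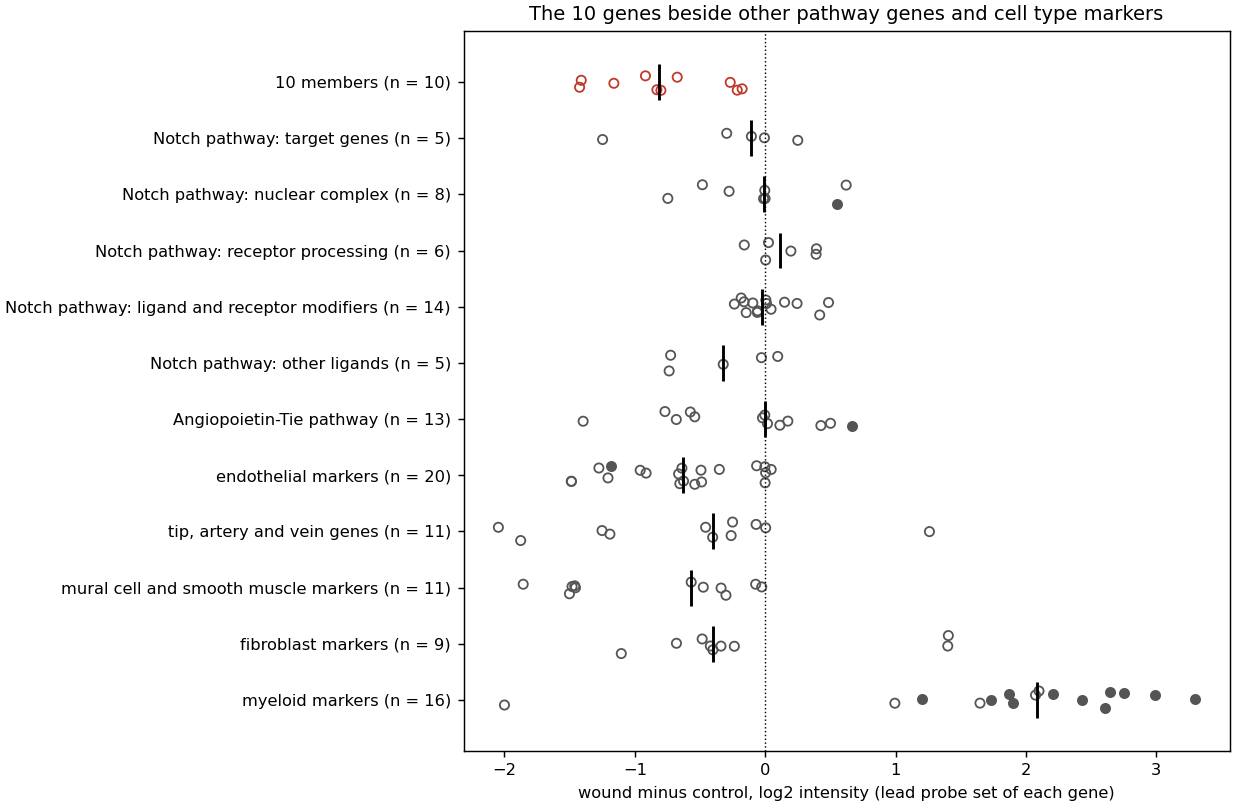
Each point is the wound minus control difference (x axis, log2 intensity) of the lead probe set of 1 gene, by list, with the 10 genes in red, filled points for genes past the adjusted threshold and a bar at each list's median. The 10 genes have a median of -0.82 and the endothelial markers one of -0.63, while the Notch pathway lists have medians from -0.32 (other ligands) to 0.11 (receptor processing), the angiopoietin-Tie pathway one of -0.00 and the myeloid markers one of 2.09.

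Downstream of the receptors, no Notch target passed the test. Of 7 listed targets 5 were measured, 4 of them below 0, with a median of -0.11. HEY1, the repressor that Notch switches on in arterial endothelium, read 5.32, 5.74 and 6.09 in the wounds, against 7.01, 6.94 and 6.94 in the controls. The controls were level and every wound was lower, with a difference of -1.25 (SE 0.21, ratio 0.421, adjusted p = 0.0654 by limma, 0.124 with the block). HES4, also above the array median, read 7.72, 7.96 and 7.83 in the wounds and 7.61, 7.53 and 7.61 in the controls. Its difference was 0.25, in the other direction (SE 0.07, adjusted p = 0.192 by limma). NRARP, above the median too and named after its values were seen, differed by -0.30 (SE 0.12, adjusted p = 0.395 by limma), with overlap. HES5 and HEY2 were dim.

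Of 8 measured genes of the nuclear complex 1 passed, with a list median of -0.01. KAT2B, an acetyltransferase of the Notch coactivator complex and of many other promoters, rose to 7.64, 7.78 and 7.73 in the wounds, against 7.29, 7.11 and 7.11 in the controls (0.55, SE 0.07, adjusted p = 0.0371 by limma). With the block its adjusted p was 0.119, and the call was lost in all 6 fits that left out 1 array (0.0600 to 0.130), after quantile normalization (0.104) and with trend and robust variance (0.0886). SNW1 and EP300, the brightest that did not pass, differed by -0.00 (SE 0.05) and -0.48 (SE 0.35). RBPJ, the DNA-binding partner of every Notch receptor, named after its values were seen, lay between 5.75 and 6.12 in the wounds and between 5.24 and 5.51 in the controls, and differed by 0.62 (SE 0.13, adjusted p = 0.0980 by limma).

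None of the genes that cut and modify Notch passed. Of 6 measured genes of receptor processing 5 were above 0, with a median of 0.11. The sheddase ADAM10 differed by 0.39 (SE 0.19) and the gamma-secretase subunit NCSTN by 0.20 (SE 0.03, adjusted p = 0.0724 by limma). PSEN2, a catalytic subunit of gamma-secretase named after its values were seen, differed by 0.39 (SE 0.08, adjusted p = 0.0876 by limma). Like NCSTN it had every wound above every control, as 20.8% of all genes did. Of 14 modifiers of ligands and receptors 0 passed, with a median of -0.03 and a range of -0.24 to 0.49, the upper end being the glycosyltransferase LFNG (SE 0.18), followed by RFNG at 0.42 (SE 0.18). Of 5 other ligands or ligand-like genes 0 passed, with a median of -0.32, and the microfibril proteins MFAP5 and MFAP2 differed by -0.74 (SE 0.13, adjusted p = 0.0774 by limma) and -0.73 (SE 0.53).

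Of 13 measured genes around the angiopoietin receptors 1 passed, with a list median of -0.00 and 7 of 13 below 0. GRB2, an adaptor that docks to TEK and to most other activated tyrosine kinases, rose to 9.13, 9.33 and 9.39 in the wounds, against 8.74, 8.53 and 8.58 in the controls (0.66, SE 0.09, adjusted p = 0.0436 by limma). With the block its adjusted p was 0.130, and the call was lost in the same settings as that of KAT2B, at 0.0541 to 0.151 with 1 array left out, 0.144 after quantile normalization and 0.0668 with trend and robust variance. The brightest that did not pass, the integrin ITGB1 and the flow-responsive factor KLF2, differed by 0.11 (SE 0.10) and -0.54 (SE 0.26).

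Of this list 4 genes had every wound below every control (7.81% of all genes) and 2 had every wound above (20.8% of all genes). The latter were GRB2 and PTPN11, which differed by 0.50 (SE 0.15, adjusted p = 0.209 by limma). The former were the dim ANGPT4 and 3 described next, these and PTPN11 being picked after their values were seen. PTPRB, the phosphatase that removes phosphate from TEK, read 4.19, 4.93 and 5.39 in the wounds and 5.81, 5.96 and 6.93 in the controls, and differed by -1.40 (SE 0.45, adjusted p = 0.255 by limma, 0.0780 with the block). FOXO1, the transcription factor that TEK signalling restrains, differed by -0.68 (SE 0.17, adjusted p = 0.148), and PIK3R1, a subunit of the kinase that TEK recruits, by -0.77 (SE 0.11, 0.0521).

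The genes that followed ANGPT2 and TIE1 most closely over the 6 arrays were found by Pearson's r among probe sets above the median. For ANGPT2 they were FZD2 (r = 0.9993), a Wnt receptor, ME3 (0.9969), a mitochondrial malic enzyme, and SELENON (0.9954), a selenoprotein of the endoplasmic reticulum. FZD2 shared the wide scatter of the wounds, at 5.50, 4.72 and 6.05, against 6.24, 6.30 and 6.60 in the controls. For TIE1 they were both of the probe sets of PLPP3 (0.9983 and 0.997), a lipid phosphatase, and COL4A2 (0.998), a collagen of the basement membrane. COL4A2 read 8.44, 8.15 and 9.66 in the wounds and 10.5, 10.7 and 10.7 in the controls, with a difference of -1.92 (SE 0.43, adjusted p = 0.118 by limma). The 6 points of each r share the difference between the 2 groups, and these are the highest values of all probe sets compared.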

How the data were processed

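The values used are log2 intensities, 1 per probe set and array, as the authors deposited them for 3 wound and 3 control CAM samples. Per the labels they come from RMA (version not stated there). It corrects background, gives the probe intensities of the arrays a common distribution and summarises the probes of a set, and it compresses differences of dim probe sets. The deposited probe set values did not share an identical distribution, since quantile normalization of them still changed the counts of calls, as given below. GCOS scaling, also mentioned in the methods, yields signals on a linear scale, unlike these. Arrays carry no counts, so their number limits the precision.

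Of 38535 probe sets 96 controls were left out. The platform annotation gives 1 symbol to 27168 probe sets, several to 177 and none to 11094, and only the first kind was named. Wound and control were compared by lmFit and eBayes of limma 3.58.1 under R 4.3.3, two-sided, with Benjamini-Hochberg adjustment over all 38439 probe sets. The rank-based SAM of the methods was not run here. Steps were tested on simulated data. Plots were made in Python 3.11.15 with matplotlib 3.10.9.

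Each egg gave a wound and a control, but that the same number stands for the same egg is not stated in the sources used here. Deviations from the group means correlated at 0.58, 0.634 and 0.45 between wound and control arrays numbered alike, so the numbers were taken to pair them. Results of a fit that takes the number as a block appear wherever that fit removes a call. Unless the block is named, each SE, interval and adjusted p comes from the fit without it. With the block the SE was 0.11 for ANGPT1, 0.37 for ANGPT2 and 0.20 for DLL1, against 0.15, 0.54 and 0.31 without it. For DLL4 it was larger, at 0.085 against 0.079.

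The rule for named genes takes all 10 genes, from every list at most 4 genes that passed and at most 2 of the brightest that did not, and the 3 probe sets most like each of the 2 genes with the largest difference. Genes outside it are marked as picked with their values in view. The 10 genes and the lists were chosen with earlier results of these data known. Alternatives were other normalisations, a filter on dim probe sets, trend and robust variance, the block, other thresholds, gene means and leaving out each array. Neither sequences nor coordinates were used.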

Additional observations from a re-analysis of the deposited data

How the results depend on the processing

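All 10 genes had a lower wound than control mean under every alternative run, and no gene of the 10 passed as higher. In most runs the sign could not turn. The block, trend and robust variance, the filter and other thresholds leave the difference itself unchanged. Nor can leaving out 1 array turn the sign of the 9 genes whose groups did not overlap. The count of the 10 that passed as lower was 0; it was 3 (ANGPT1, TEK and TIE1) with only probe sets above the median, where fewer probe sets are tested, 3 at an adjusted p under 0.1, and 0 to 4 with 1 array left out. Without wound replicate 3 it was 4 and without control replicate 1 it was 1. Lower calls over all probe sets moved too. They numbered 117 in the main fit, 359 with only probe sets above the median and 340 at 0.1. They numbered 421 without wound replicate 3 and 40 without control replicate 1. With the mean of all probe sets of each gene over 13009 genes ANGPT1, TEK and TIE1 passed (adjusted p = 0.0149, 0.0329 and 0.0338 by limma), and the values of NOTCH1 and NOTCH2 shrank to -0.14 and -0.18, since dim probe sets entered the mean.

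Over all probe sets 785 were higher and 117 lower. Quantile normalization gave 121 and 56, only probe sets above the median 1426 and 359, a threshold of 0.1 gave 1570 and 340, and an added fold over 2 gave 208 and 50. With trend and robust variance 374 were higher. With 1 array left out 22 to 790 were higher and 10 to 421 lower, the extremes being without control replicate 3 and without wound replicate 3. Of the members of all lists 17 passed, against 7 after quantile normalization, 33 with only probe sets above the median, 32 at 0.1 and 1 to 27 with 1 array left out. The causes were not tested.

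In the paired fit with the replicate block 270 probe sets were higher and 45 lower, 3 list members passed, and 0 of the 10 genes did, with adjusted p between 0.0982 and 0.419 by limma. The block ended the calls of EGFL7, KAT2B and GRB2. Those of KAT2B and GRB2 were also lost after quantile normalization, with trend and robust variance and in all 6 fits with 1 array left out, and that of EGFL7 in 5 of these 6.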

Other observations

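Other lists of the tissue gave values that belong to no comparison above. Of 8 measured epithelial markers 3 passed and all 8 were above 0, with a median of 0.60. Over all genes 3.92% passed as higher, and 43% had a lower mean in the wounds. Of the 3, KRT75 and EPCAM (there TACSTD1) are in the study's own list of up-regulated genes from these arrays. Their calls were thus known beforehand. The tight junction protein CLDN1 differed by 0.79 (SE 0.04, adjusted p = 0.0110 by limma, 0.0417 with the replicate number as a block), the adhesion molecule EPCAM by 0.73 (SE 0.05, 0.0147, 0.0541 with the block) and the keratin KRT75 by 5.98 (SE 0.41, 0.0153, 0.0571 with the block). Of 5 angiopoietin-like genes 0 passed, with a median of 0.01. ANGPTL4, which regulates lipoprotein lipase, read 3.15, 3.07 and 4.46 in the wounds and 3.32, 2.70 and 3.72 in the controls, with the highest value of each group at replicate 3.

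Among 9 fibroblast markers 0 passed, 7 were below 0 and the median was -0.40. The brightest were COL3A1, at -0.40 (SE 0.29) with overlap, and COL1A1, at -1.10 (SE 0.46), the lowest of the list. POSTN and FAP, both linked to activated fibroblasts and named after their values were seen, were the only members above 0, at 1.40 (SE 0.52) and 1.40 (SE 0.41). Each had every wound above every control, an order found in 20.8% of all genes. FAP passed with the block (adjusted p = 0.0469 by limma). Of 9 lymphocyte markers and of 5 erythroid and thrombocyte markers 0 passed, with medians of 0.01 and -0.11. Among the lymphocyte markers 7 were above 0 and 2 below, and only 5 lay above the array median. CD3D and CD3E, named after their values were seen, differed by 1.36 (SE 0.21, adjusted p = 0.0554 by limma) and 0.66 (SE 0.20, 0.226). Both had every wound above every control.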
